A study of Mus musculus with 16 samples.

Results

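The negative regulators of TCR signaling examined here are 10 genes, Csk, Pag1, Ptpn22, Ptpn6, Ptpn2, Cblb, Cbl, Ubash3a, Dgka and Dgkz, taken as the rows of the count table that carry these gene names. Each name had 1 row, so that all 10 genes were found among the 55450 genes of the table. When a TCR is engaged, the kinase LCK phosphorylates the CD3 and zeta chains, ZAP70 is recruited and activated, and PLCγ1 generates diacylglycerol and Ca2+ signals. The 10 genes act as brakes at successive steps of this cascade: CSK, held at the membrane by PAG1, phosphorylates the inhibitory tyrosine of LCK, the tyrosine phosphatases PTPN22, PTPN6 (SHP-1) and PTPN2 remove activating phosphates, CBL and CBL-B are ubiquitin ligases that mark signaling proteins for removal or inactivation, UBASH3A (STS-2) binds ubiquitylated proteins, and the diacylglycerol kinases DGKα and DGKζ consume diacylglycerol. In T cells these brakes set how much antigen is needed for activation, and several are known for their part in anergy and tolerance.

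RNA-sequencing was performed on TILs recovered from s.c. tumors of B16F10, a C57BL/6 melanoma line, which all animals carried. The 4 groups were WT CD4+ TILs, Sirt2-/- CD4+ TILs, WT CD8+ TILs and Sirt2-/- CD8+ TILs, with 4 libraries each (16 in all). Sirt2-/- mice carried a germline deletion (B6.129-Sirt2tm1.1Fwa/J, against C57BL/6J WT mice), so that tumor-bearing hosts as well as T cells lacked SIRT2, and the mice were age- and sex-matched. TILs had been enriched on a density gradient and with CD3ε beads, and how CD4+ and CD8+ cells were then separated is not given in the sources used here. The study asked how loss of SIRT2, a NAD-dependent deacetylase, alters TCR responsiveness, and the 4 groups allow each regulator to be compared between genotypes within a cell type and between cell types within a genotype.

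Libraries held between 28000949 and 62407851 counts and between 8169 and 22138 detected genes. In 3 libraries fewer than 15000 genes were detected: Sirt2-/- CD4+ replicate 4 (8169 genes at 62407851 counts), WT CD4+ replicate 1 (12587) and WT CD8+ replicate 1 (14411). Most fitted differences that rest on these libraries are given with and without them, whereas RPKM and shares are given with all libraries unless stated. Sirt2 itself, at 33.4 to 75.6 CPM (read counts scaled to a common library size) in the 8 WT libraries, was at 6.53 to 12.2 in 7 Sirt2-/- libraries and at 0 in Sirt2-/- CD4+ replicate 4. Cd4 was at 384 to 620 CPM in CD4+ libraries and at most 4.93 in CD8+ libraries, whereas Cd8a was at 1004 to 1261 CPM in CD8+ libraries and at most 33.4 in CD4+ libraries. The labelled cell types therefore matched their defining markers, and the labels do not say whether libraries of one number share an animal.

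All 10 regulators were expressed in all 16 libraries, and all 10 entered every test. No regulator passed the test between genotypes in either cell type. Between cell types, Ptpn6 was 2.15-fold higher in WT CD8+ than in WT CD4+ TILs, Dgka was lower in CD8+ TILs of both genotypes (fold changes of 0.439 in WT and 0.435 in Sirt2-/-), and Dgkz was lower in WT CD8+ TILs (0.570). The remaining 7 genes passed no test between cell types with all libraries included. Values are CPM after TMM normalization over the 16 libraries, and differences are log2 fold changes with standard errors (SE) from edgeR's quasi-likelihood test, with Benjamini–Hochberg (BH) adjustment over all genes tested and a gene called at an adjusted p below 0.05.

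**Figure D1:**
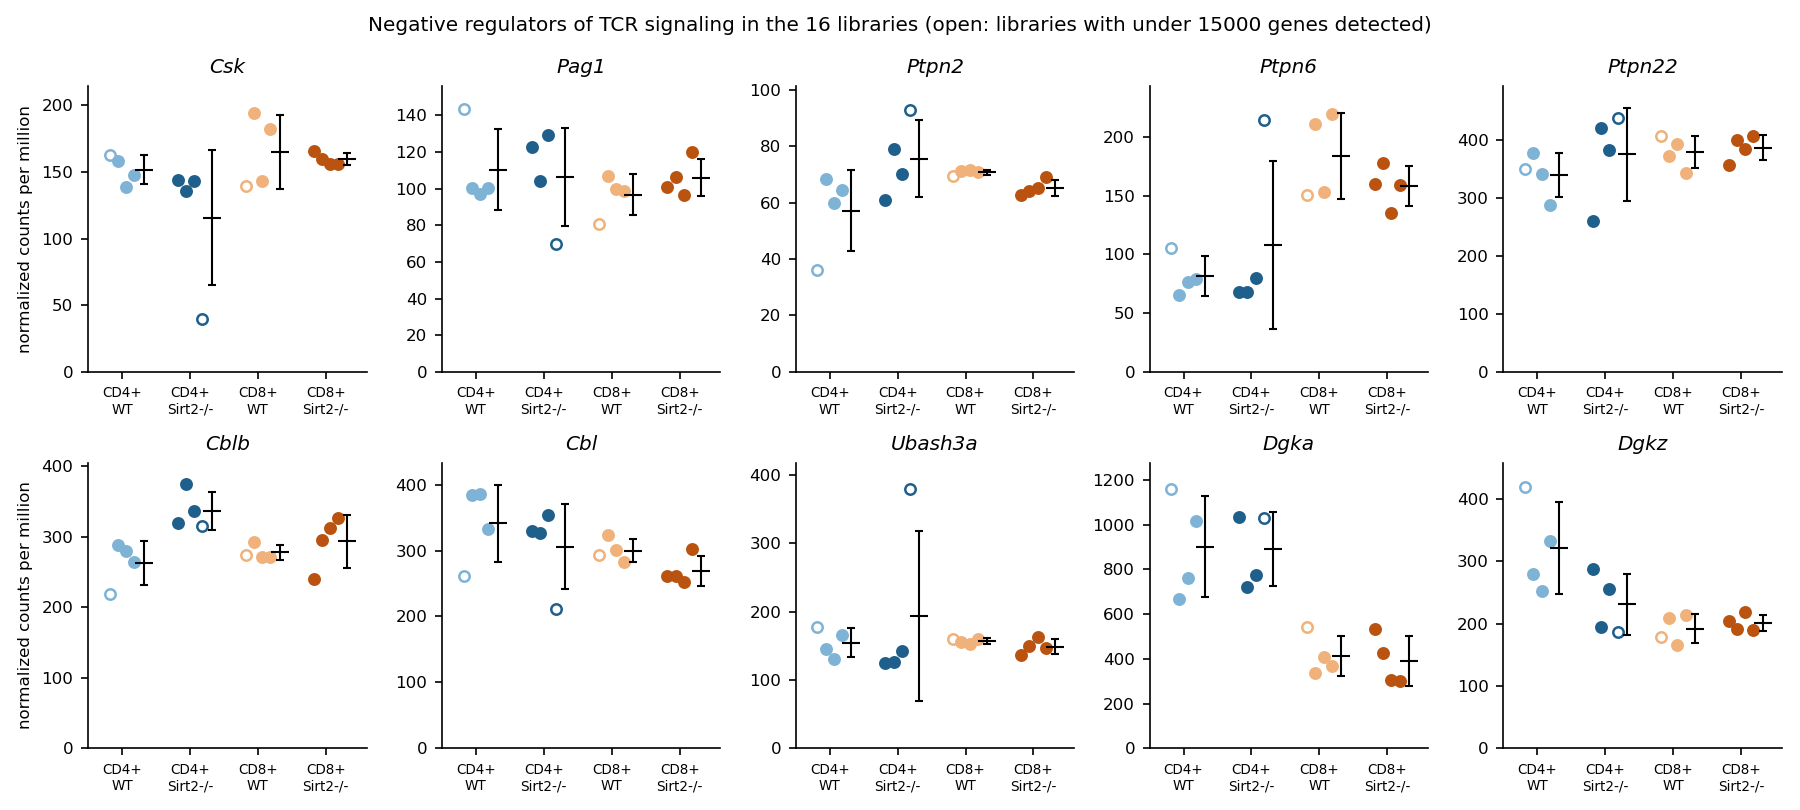
CPM (y axis) of each of the 10 regulators in every library, by cell type and genotype (x axis), with the mean and SD of the 4 libraries of a group as black bars and open symbols for the 3 libraries with fewer than 15000 detected genes. Dgka and Ptpn6 separate the cell types (with Sirt2-/- CD4+ replicate 4 as the exception for Ptpn6), and the open symbol of that library lies away from its group for Csk (39.6), Ptpn6 (215) and Ubash3a (379).

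Expressed per kilobase of exon (RPKM, which allows levels of different genes to be compared), Dgka was the most abundant of the 10 in every group, at 189 ± 47.7 in WT CD4+, 187 ± 34.9 in Sirt2-/- CD4+, 86.9 ± 18.8 in WT CD8+ and 82.0 ± 23.1 in Sirt2-/- CD8+ TILs (mean ± SD, n = 4). Its range overlapped that of the next gene only in WT CD8+ TILs, where Ptpn6 followed at 65.6 ± 13.1 RPKM. In Sirt2-/- CD8+ TILs the next gene by mean was Ptpn22. There the lowest Dgka value (62.7 RPKM) still lay below the highest Ptpn6 value (63.4), so that these ranges overlapped as well. Pag1 was the least abundant in every group, at 10.1 to 11.5 RPKM, with Ubash3a next above it at 13.2 to 17.2. Between these, Ptpn22 (50.1 to 57.1 RPKM) and Csk (31.0 to 44.1) stood above Ptpn2 (18.3 to 24.2) in the group means. In CD4+ TILs, all neighbours in the order below Dgka overlapped in both genotypes. In CD8+ TILs, Csk was separated from Dgkz below it, and Ptpn2 from Ubash3a below it, in both genotypes.

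Csk and Pag1, the kinase that restrains LCK and the adaptor that anchors it, did not pass the test in any comparison. Csk was at 163, 158, 139 and 148 CPM in WT CD4+ TILs, and at 144, 136, 143 and 39.6 in Sirt2-/- CD4+ TILs. It was at 139, 195, 143 and 182 CPM in WT CD8+ TILs and at 166, 160, 156 and 156 in Sirt2-/- CD8+ TILs. A single library, Sirt2-/- CD4+ replicate 4, was low, and the other 15 lay between 136 and 195. Its log2 fold change between genotypes in CD4+ TILs was -0.38 (SE 0.35), and -0.07 without the 3 low-detection libraries. In Sirt2-/- TILs, Csk was higher in every CD8+ library than in every CD4+ library, but the log2 difference of 0.45 (SE 0.36) did not pass the test. Its size depended on the library at 39.6 CPM. Without that library the Sirt2-/- CD4+ mean was 141 CPM, beside 160 in Sirt2-/- CD8+ TILs. Fits without 1 library gave log2 differences between 0.15 and 0.56.

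Pag1 was at 144, 101, 97.0 and 100 CPM in WT CD4+ TILs, and at 123, 104, 129 and 69.7 in Sirt2-/- CD4+ TILs. In CD8+ TILs it was at 80.6, 107, 100 and 98.9 in WT and at 101, 106, 96.8 and 120 in Sirt2-/- mice. The groups overlapped in all 4 comparisons. The highest WT CD4+ value and the lowest Sirt2-/- CD4+ value both came from low-detection libraries, and the log2 difference between genotypes in CD4+ TILs turned from -0.04 (SE 0.24) to 0.26 without the low-detection libraries, with neither passing the test.

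Of the phosphatases, Ptpn6 differed between WT cell types. The gene (chr6:124720707-124738714, minus strand, GRCm38) encodes SHP-1, which dephosphorylates proximal kinases including LCK and ZAP70. It was at 105, 65.5, 76.3 and 79.3 CPM in WT CD4+ TILs and at 151, 211, 153 and 220 in WT CD8+ TILs. The WT groups did not overlap, and every CD8+ library lay above every CD4+ library. The log2 fold change was 1.11 (SE 0.18, edgeR, BH-adjusted p = 0.00229), and 1.40 without the low-detection libraries (edgeR, BH-adjusted p = 8.0e-05).

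In Sirt2-/- mice, Ptpn6 was at 67.9, 68.1, 80.3 and 215 CPM in the CD4+ libraries and at 160, 178, 136 and 160 in the CD8+ libraries. Sirt2-/- CD4+ replicate 4 exceeded all 4 Sirt2-/- CD8+ libraries, whereas the other 3 CD4+ libraries lay below all of them. With this library included the cell-type difference was 0.55 on the log2 scale (SE 0.37, edgeR, BH-adjusted p = 0.739). Without it the difference was 1.10 (SE 0.12) and passed the test (edgeR, BH-adjusted p = 0.000121).

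Between genotypes, Ptpn6 changed by 0.40 (SE 0.37) in CD4+ TILs on the log2 scale and by -0.22 (SE 0.14) in CD8+ TILs. Neither passed the test. Without the low-detection libraries the CD4+ value was -0.03, and the CD8+ value was -0.29 (SE 0.13, 95% interval -0.58 to -0.0062 before adjustment, edgeR, BH-adjusted p = 0.9998). An annotated antisense gene, Gm20531, shares 195 exon bases (6.96%) with Ptpn6, and reads were counted by a program whose strand setting is not given in the sources used here. Gm20531 was at 0 to 0.608 CPM in all libraries.

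Ptpn22 and Ptpn2 passed no test. Ptpn22, which dephosphorylates LCK and ZAP70 and binds CSK, was at 350, 378, 342 and 288 CPM in WT CD4+ TILs and at 260, 420, 383 and 438 in Sirt2-/- CD4+ TILs. It was at 407, 373, 393 and 343 CPM in WT CD8+ TILs and at 357, 400, 384 and 407 in Sirt2-/- CD8+ TILs. Its groups overlapped in every comparison, and its fitted log2 differences lay between 0.03 and 0.15.

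Ptpn2, which dephosphorylates LCK and FYN as well as JAK kinases, was at 36.2, 68.3, 59.8 and 64.3 CPM in WT CD4+ TILs and at 60.8, 78.9, 69.9 and 92.7 in Sirt2-/- CD4+ TILs. In CD8+ TILs it was at 69.3, 71.2, 71.4 and 70.9 in WT and at 62.5, 64.0, 65.1 and 68.9 in Sirt2-/- mice. All WT CD8+ libraries lay above all Sirt2-/- CD8+ libraries and above all WT CD4+ libraries, by narrow margins. The genotype difference in CD8+ TILs was -0.12 (SE 0.09, 95% interval -0.31 to 0.07, edgeR, BH-adjusted p = 0.986), and that in CD4+ TILs was 0.40 (SE 0.26), or 0.13 without the low-detection libraries. The WT difference between cell types, 0.23 (SE 0.20), did not pass either, and it lay between 0.14 and 0.33 in fits without 1 library.

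Among the ubiquitin pathway genes, Cblb gave the genotype difference with the smallest unadjusted p of the 10 in CD4+ TILs. CBL-B is the ligase that limits T cell activation in the absence of CD28 costimulation (chr16:52031225-52208048, plus strand). It was at 218, 288, 279 and 264 CPM in WT CD4+ TILs and at 320, 375, 337 and 315 in Sirt2-/- CD4+ TILs. All 4 Sirt2-/- libraries lay above all 4 WT libraries. The log2 difference was 0.36 (SE 0.16, 95% interval 0.02 to 0.71), and 0.31 without the low-detection libraries. In edgeR's quasi-likelihood test the unadjusted p was 0.0413 and the BH-adjusted p was 0.9999, so that the difference did not pass.

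In CD8+ TILs, Cblb was at 275, 293, 272 and 272 CPM in WT and at 240, 295, 313 and 326 in Sirt2-/- mice. These groups overlapped, with a log2 difference of 0.08 (SE 0.11). Between cell types the differences were 0.01 (SE 0.12) in WT and -0.21 (SE 0.13) in Sirt2-/- TILs, and neither passed the test.

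Cbl, the closest relative of Cblb, was at 262, 385, 386 and 333 CPM in WT CD4+ TILs and at 330, 327, 355 and 211 in Sirt2-/- CD4+ TILs. It was at 293, 324, 301 and 283 CPM in WT CD8+ TILs and at 262, 261, 252 and 303 in Sirt2-/- CD8+ TILs. The lowest value of each CD4+ group came from its low-detection library. With all libraries no comparison passed, and CD8+ over CD4+ was -0.26 (SE 0.15) in WT and -0.20 (SE 0.18) in Sirt2-/- TILs on the log2 scale. Without Sirt2-/- CD4+ replicate 4 the latter was -0.36 (SE 0.10) and passed (edgeR, BH-adjusted p = 0.0187), whereas without both WT low-detection libraries the former was -0.29 and did not (edgeR, BH-adjusted p = 0.0663).

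Ubash3a was at 178, 145, 131 and 165 CPM in WT CD4+ TILs and at 125, 127, 142 and 379 in Sirt2-/- CD4+ TILs. In CD8+ TILs it was at 160, 155, 152 and 160 in WT and at 136, 150, 162 and 146 in Sirt2-/- mice. Apart from the 1 library at 379, the values of the 15 others lay between 125 and 178. The genotype difference in CD4+ TILs turned from 0.32 (SE 0.34) to -0.16 without the low-detection libraries, and neither passed the test.

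**Figure D2:**
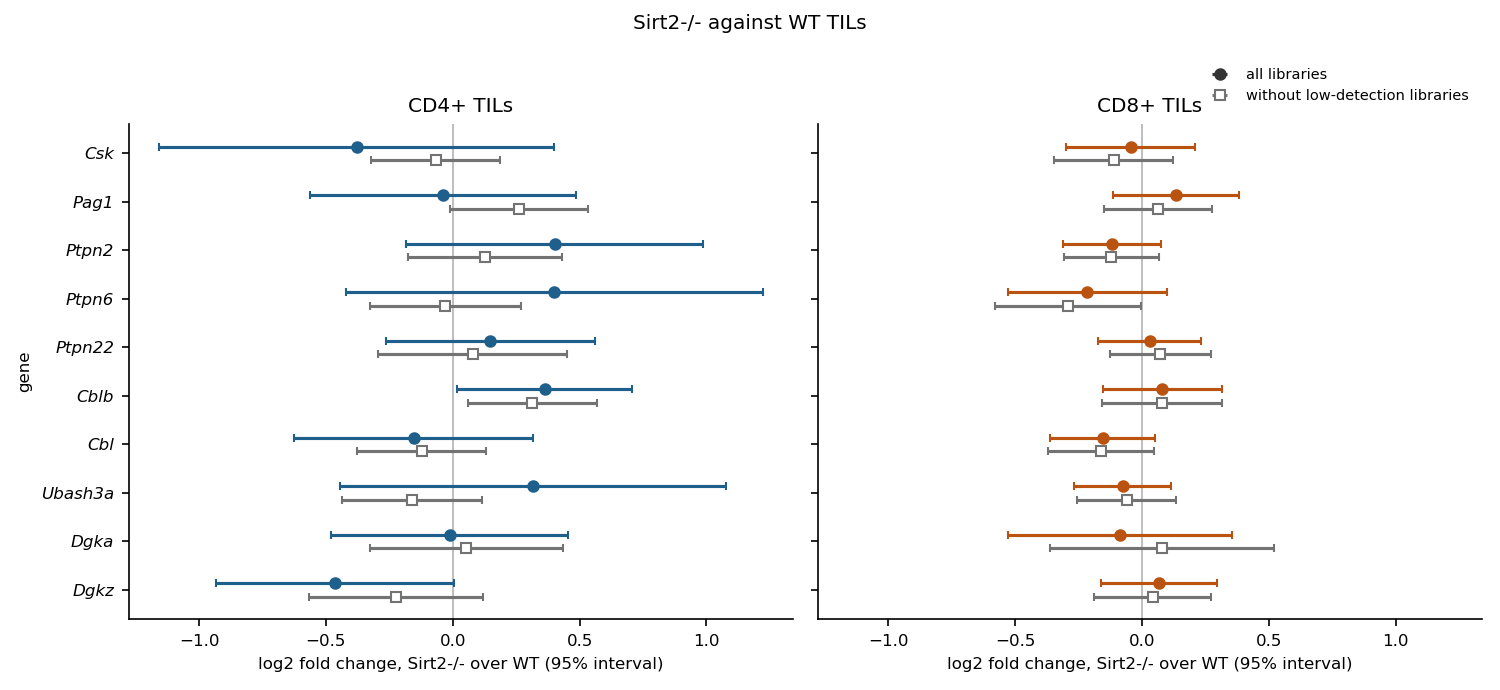
Log2 fold change of Sirt2-/- over WT (x axis, with 95% intervals) for the 10 regulators (y axis) in CD4+ and CD8+ TILs, with all libraries (filled circles) and without the 3 low-detection libraries (open squares). Intervals are wider in CD4+ TILs with all libraries, where that of Cblb lies above 0 before adjustment, and the CD8+ values with all libraries lie between -0.22 and 0.13.

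Counted over the list, 0 of 10 regulators were called in CD4+ TILs between genotypes by edgeR, 0 by DESeq2 and 0 by limma-voom with quality weights, and 1 (Cblb, higher) was under 0.05 before adjustment, beside 150 genes higher and 40 lower. Of the 15070 genes tested, 0% were called higher and 0% lower. Sirt2 itself was not called in this fit (log2 difference -2.60, SE 1.26, edgeR, BH-adjusted p = 0.9999), in which Sirt2-/- CD4+ replicate 4 had no Sirt2 count. Without the low-detection libraries Sirt2 was called (-1.95, SE 0.18, edgeR, BH-adjusted p = 0.00163), together with 5 other genes and 0 of the 10 regulators. The groups did not overlap for 1 of the 10 (Cblb, higher), against 1.31% of genes tested that were higher and 1.82% that were lower without overlap. The median log2 difference of the 10 was 0.07, beside -0.11 over all genes tested. The 5 differences above 0 and 5 below 0 are relative to the scaling, under which the median of all genes lay below 0.

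In CD8+ TILs, 0 of 10 were called by edgeR, 0 by DESeq2 and 0 by limma-voom, and 0 were under 0.05 before adjustment. Of the 15302 genes tested, 0% were called higher and 0.00654% lower (1 gene, Sirt2). Ptpn2 was the 1 regulator without overlap (lower), against 1.74% of genes higher and 1.22% lower. The adjusted p of the 10 lay between 0.986 and 0.991, and the 95% intervals of the 10 log2 fold changes reached no lower than -0.53 and no higher than 0.38. A genotype effect that differed from CD4+ to CD8+ TILs was called for 0 of 10 by edgeR, 0 by DESeq2 and 0 by limma-voom, and 1 (Dgkz, higher) was under 0.05 before adjustment, beside 163 genes higher and 179 lower. There 0% of 17270 genes were called higher and 0% lower.

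Both diacylglycerol kinases differed between WT cell types, and Dgka also between Sirt2-/- cell types. DGKα and DGKζ convert diacylglycerol to phosphatidic acid and so limit RAS–ERK and PKCθ signaling. Dgka (chr10:128720134-128744855, minus strand) was at 1161, 668, 761 and 1017 CPM in WT CD4+ TILs and at 541, 338, 409 and 368 in WT CD8+ TILs. The groups did not overlap, and every CD8+ library lay below every CD4+ library. The log2 fold change was -1.19 (SE 0.19, 95% interval -1.61 to -0.76, edgeR, BH-adjusted p = 0.00239), and -1.14 without the low-detection libraries (edgeR, BH-adjusted p = 0.000341).

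In Sirt2-/- mice, Dgka was at 1036, 720, 775 and 1029 CPM in the CD4+ libraries and at 531, 426, 307 and 299 in the CD8+ libraries. Again no library of one cell type overlapped the other. The log2 fold change was -1.20 (SE 0.22, 95% interval -1.71 to -0.69, edgeR, BH-adjusted p = 0.0344), and -1.14 without Sirt2-/- CD4+ replicate 4 (edgeR, BH-adjusted p = 0.00519). The call was lost without any 1 of 6 other libraries (Sirt2-/- CD4+ replicates 1 to 3 and Sirt2-/- CD8+ replicates 2 to 4, edgeR, BH-adjusted p between 0.076 and 0.132), with log2 fold changes between -1.29 and -1.09. Genotype differences of Dgka were -0.01 (SE 0.21) in CD4+ and -0.09 (SE 0.20) in CD8+ TILs, and the difference of these effects (-0.06, SE 0.31) did not pass the test.

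Dgkz (chr2:91932824-91975864, minus strand) was at 420, 280, 253 and 333 CPM in WT CD4+ TILs and at 179, 209, 165 and 214 in WT CD8+ TILs. All WT CD8+ libraries lay below all WT CD4+ libraries. The log2 fold change was -0.81 (SE 0.16, edgeR, BH-adjusted p = 0.00653), and -0.56 without the low-detection libraries (edgeR, BH-adjusted p = 0.0105).

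In Sirt2-/- mice, Dgkz was at 288, 194, 257 and 186 CPM in the CD4+ libraries and at 204, 192, 218 and 190 in the CD8+ libraries. These groups overlapped, with a log2 difference of -0.22 (SE 0.17, edgeR, BH-adjusted p = 0.808) and of -0.33 without Sirt2-/- CD4+ replicate 4 (edgeR, BH-adjusted p = 0.0894). In CD4+ TILs, Sirt2-/- over WT was -0.46 (SE 0.21, 95% interval -0.93 to 0.01) and -0.22 without the low-detection libraries, whereas in CD8+ TILs it was 0.07 (SE 0.10). The difference between these values was 0.54 (SE 0.24) and did not pass the test (edgeR, BH-adjusted p = 0.9999), and it was 0.27 without the low-detection libraries.

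**Figure D3:**
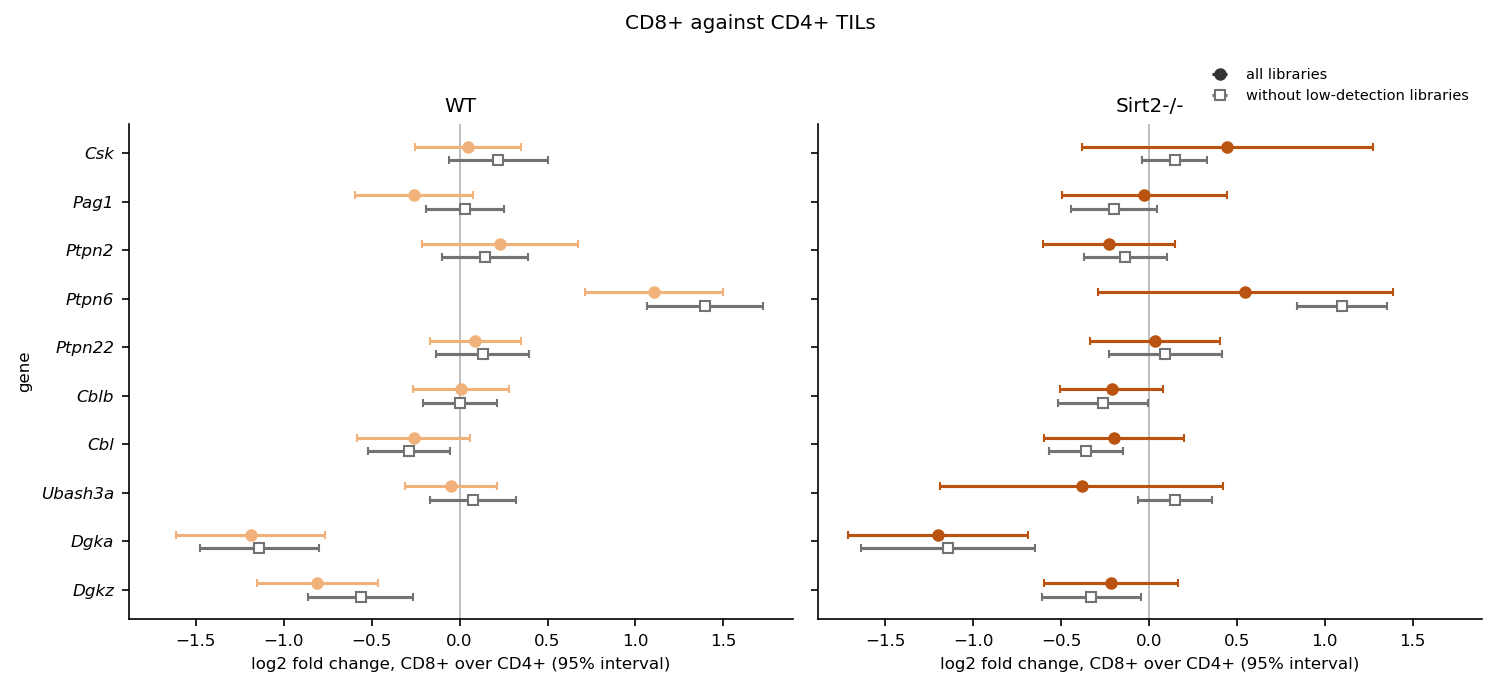
Log2 fold change of CD8+ over CD4+ TILs (x axis, with 95% intervals) for the 10 regulators (y axis) in WT and Sirt2-/- mice, with all libraries (filled circles) and without the low-detection libraries (open squares). Dgka lies near -1.2 in both genotypes, and Ptpn6 lies at 1.11 in WT and at 0.55 (1.10 without Sirt2-/- CD4+ replicate 4) in Sirt2-/- TILs.

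Counted over the list, 1 of 10 regulators was called higher (Ptpn6) and 2 lower (Dgka, Dgkz) in WT CD8+ than in WT CD4+ TILs, where 4.89% of the 14892 genes tested were called higher and 6.96% lower. Groups did not overlap for 2 regulators that were higher (Ptpn6, Ptpn2) and 2 that were lower (Dgka, Dgkz), beside 12.6% and 10% of genes tested. In Sirt2-/- TILs, 0 were called higher and 1 lower (Dgka), where 0.918% of the 15787 genes tested were called higher and 1.32% lower. There the groups did not overlap for 1 that was higher (Csk) and 1 that was lower (Dgka), beside 16% and 6.22% of genes tested. Without Sirt2-/- CD4+ replicate 4, 1 regulator was called higher in Sirt2-/- TILs (Ptpn6) and 2 lower (Dgka, Cbl), where 13.8% of the 16703 genes tested in that fit were called higher and 11.6% lower. Without the low-detection libraries, 1 regulator was called higher in WT TILs (Ptpn6) and 2 lower (Dgka, Dgkz), where 14.9% and 13.1% of 15694 genes were called. The median log2 difference of the 10 was -0.02 in WT, as over all genes tested (-0.02), and -0.21 in Sirt2-/- TILs, beside 0.16 over all genes tested. The WT and Sirt2-/- comparisons share no library with each other, but both share libraries with the genotype comparisons.

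Other features of the libraries moved with the cell types. With all libraries, 4.89% of genes tested were called higher and 6.96% lower in WT CD8+ TILs, and 0.918% and 1.32% in Sirt2-/- CD8+ TILs. All 4 markers of Treg cells (Foxp3, Il2ra, Ctla4, Ikzf2) were called lower in CD8+ TILs of both genotypes, with a summed level of 1525 to 2528 CPM in WT CD4+, 1153 to 2440 in Sirt2-/- CD4+, 110 to 227 in WT CD8+ and 145 to 317 in Sirt2-/- CD8+ libraries and no marker at 0. Of 6 markers of naive or quiescent T cells, 3 were called lower in WT CD8+ TILs and 0 in Sirt2-/- CD8+ TILs, with summed levels of 1438 to 1990 (WT CD4+), 1263 to 4000 (Sirt2-/- CD4+), 1248 to 1665 (WT CD8+) and 1166 to 2464 CPM (Sirt2-/- CD8+). With the low-detection libraries left out, 3 of the 6 were called lower in WT and 2 in Sirt2-/- CD8+ TILs, beside 13.1% and 11.6% of all genes tested. Of 6 exhaustion markers, Havcr2 was called higher and Pdcd1 and Tigit lower in WT CD8+ TILs, and Tigit lower in Sirt2-/- CD8+ TILs, with summed levels of 442 to 723 (WT CD4+), 342 to 711 (Sirt2-/- CD4+), 461 to 529 (WT CD8+) and 435 to 870 CPM (Sirt2-/- CD8+). With the low-detection libraries left out, 2 exhaustion markers were called higher and 2 lower in WT CD8+ TILs, beside 14.9% and 13.1% of all genes tested. For Sirt2-/- CD8+ TILs the counts were then 2 higher and 1 lower, beside 13.8% and 11.6%. Of 3 genes listed as endothelial markers, only Pecam1 was tested, so that this list rests on 1 gene and does not measure endothelial cells. Pecam1 was called lower in WT CD8+ TILs (-1.46) and, with all libraries, not in Sirt2-/- CD8+ TILs. Without Sirt2-/- CD4+ replicate 4, Pecam1 was called lower in Sirt2-/- CD8+ TILs as well. Its list summed to 88.2 to 116 (WT CD4+), 56.4 to 164 (Sirt2-/- CD4+), 36.2 to 46.8 (WT CD8+) and 39.5 to 78.5 CPM (Sirt2-/- CD8+), with up to 2 of the 3 at 0 in a library. The part of these features in the levels of Ptpn6, Dgka and Dgkz was not tested. In bulk RNA, fewer cells of a type and less RNA per cell cannot be told apart.

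Dgka shares 105 exon bases (2.20%) with Pmel, a melanocyte gene on the opposite strand. Pmel was at 0 to 2.39 CPM in 14 libraries, at 3.39 in WT CD8+ replicate 1 and at 13.97 in WT CD4+ replicate 1, against a lowest Dgka value of 299 CPM. The summed level of the 6 melanocyte markers was at most 85.6 CPM (WT CD4+ replicate 1). Dgkz shares 222 exon bases (3.54%) with Gm9821 on the opposite strand, which was at no more than 1.28 CPM. Myeloid markers summed to at most 38.0 CPM and B cell markers to at most 12.5 CPM in any library. Sirt2-/- CD4+ replicate 4, the library that stood apart for Csk, Ptpn6 and Ubash3a, had the lowest summed level of the 7 T cell markers in its group (1201 CPM against 1729 to 1866) and the highest Cd8b1 of the CD4+ libraries (60.8 CPM), with 8 of 10 myeloid and 5 of 6 melanocyte markers at 0. Its melanocyte markers nonetheless summed to 27.5 CPM, against 4.97 to 8.01 in the rest of its group. Its myeloid markers summed to 11.6 CPM, against 6.84 to 34.2. The part of these features in the values of Sirt2-/- CD4+ replicate 4 was not tested.

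The balance within an enzyme class does not depend on library size. As a share of counts per kilobase, Cblb made up 49.6, 46.8, 46.1 and 48.4% of Cblb plus Cbl in WT CD4+ TILs and 53.3, 57.4, 52.8 and 63.8% in Sirt2-/- CD4+ TILs. The groups did not overlap, with means of 47.7% ± 1.56 and 56.9% ± 5.08 (SD, n = 4, two-sided exact permutation test, p = 0.029, which is the lowest value possible with 4 against 4 libraries, BH-adjusted p = 0.0857 over 12 tests of 3 shares). Leaving out 1 library gave differences of 6.82 to 10.5 percentage points between these means. In CD8+ TILs the means were 52.2% ± 0.73 in WT and 56.1% ± 3.13 in Sirt2-/- mice (exact permutation test, p = 0.086, BH-adjusted p = 0.171), with overlap. The WT share was 4.51 percentage points higher in CD8+ than in CD4+ TILs without overlap (exact permutation test, p = 0.029, BH-adjusted p = 0.0857), and the Sirt2-/- share was 0.73 points lower (-0.73, exact permutation test, p = 0.77).

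Ptpn6 made up 29.9% ± 5.90 of the 3 phosphatases in WT CD4+, 45.2% ± 6.13 in WT CD8+, 30.7% ± 9.96 in Sirt2-/- CD4+ and 41.9% ± 2.78 in Sirt2-/- CD8+ TILs (SD, n = 4). The WT cell types did not overlap (15.3 points, exact permutation test, p = 0.029, BH-adjusted p = 0.0857), and the Sirt2-/- cell types overlapped through Sirt2-/- CD4+ replicate 4 at 44.8% (11.2 points, exact permutation test, p = 0.14). The other Sirt2-/- CD4+ libraries lay at 21.8 to 29.5%, below the lowest Sirt2-/- CD8+ library (38.4%). Leaving out 1 library gave 8.25 to 15.9 points between Sirt2-/- cell types and 13.1 to 17.8 between WT cell types. Dgka made up 78.6% ± 1.95 of Dgka plus Dgkz in WT CD4+, 73.5% ± 5.70 in WT CD8+, 83.3% ± 3.34 in Sirt2-/- CD4+ and 71.1% ± 5.87 in Sirt2-/- CD8+ TILs. The Sirt2-/- cell types did not overlap (-12.3 points, exact permutation test, p = 0.029, BH-adjusted p = 0.0857), and the WT cell types did (-5.10 points, exact permutation test, p = 0.23). No share passed 0.05 after adjustment. The lowest p that the exact permutation test can give here is 0.029. Over 12 tests, a share could pass only if most of them stood at that lowest value. The adjusted p therefore cannot decide whether a share differed.

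**Figure D4:**
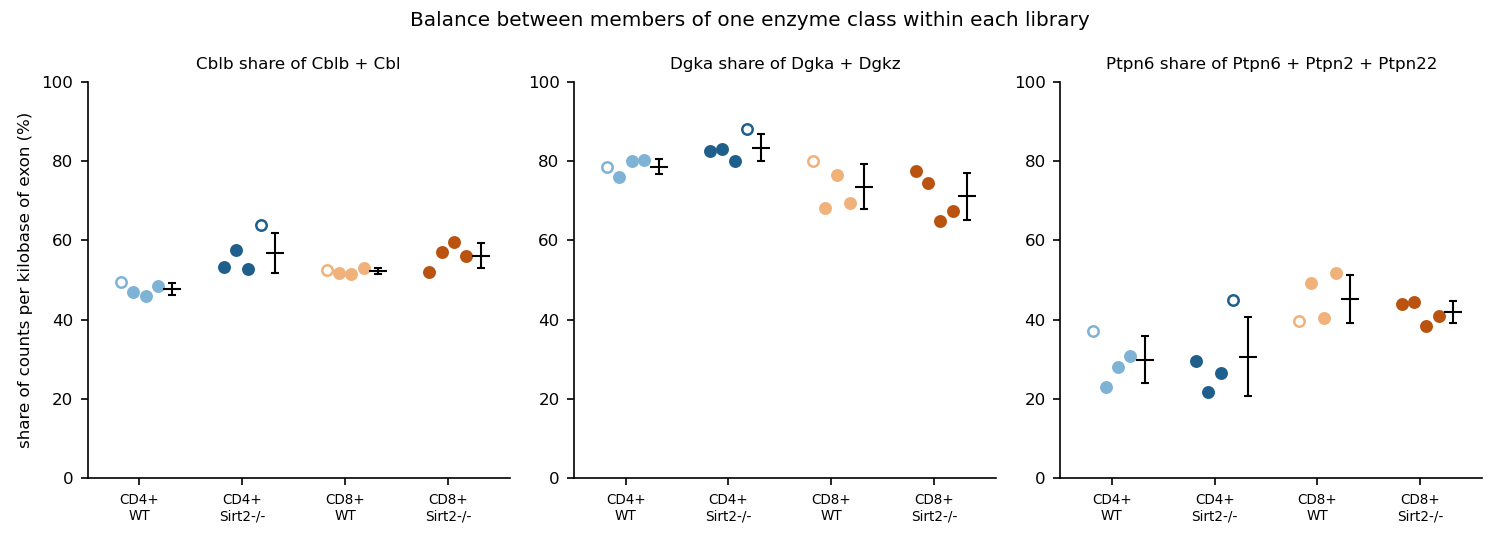
Share of counts per kilobase of exon (y axis, percent) taken by Cblb within Cblb plus Cbl, by Dgka within Dgka plus Dgkz and by Ptpn6 within the 3 phosphatases, in every library by group (x axis), with mean and SD as black bars and open symbols for the low-detection libraries. The Cblb share lay between 46.1 and 49.6% in WT CD4+ TILs and between 52.8 and 63.8% in Sirt2-/- CD4+ TILs.

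The other genes of the pathway came from 3 lists. Of 38 further negative regulators, 37 were tested between WT cell types, with 4 called higher and 9 lower in CD8+ TILs, beside the 4.89% and 6.96% of all genes tested. The 6 with the largest differences were Nedd4, a ubiquitin ligase that targets CBL-B and, unlike what the name of the list says, is known to promote T cell activation (log2 fold change 3.01), Tnfaip3, the A20 inhibitor of NF-κB (-1.86), Cd5, an inhibitory receptor (-1.77), Sla, the adaptor SLAP that lowers TCR levels (-1.48), Ptpn12 (1.37) and Ptprj (-1.09), both tyrosine phosphatases. In Sirt2-/- TILs, 1 of 37 was called higher (Lax1, an inhibitory adaptor, 0.68) and 2 lower (Tnfaip3 at -1.68 and Cd5 at -1.39), beside 0.918% and 1.32% of all genes tested. With the low-detection libraries left out, 5 were called higher and 11 lower in WT TILs, beside 14.9% and 13.1% of all genes tested. For Sirt2-/- TILs the counts were then 6 higher and 8 lower, beside 13.8% and 11.6%. The median log2 difference of the list was -0.30 in WT and -0.01 in Sirt2-/- TILs.

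The second list held 16 genes of the TCR complex and proximal signaling, which include targets of the 10 regulators. Of these, 2 were called higher in WT CD8+ TILs (Lck, the kinase that CSK restrains, at 0.41 and Prkcq, encoding PKCθ, at 0.55) and 2 lower (Cd247, the zeta chain, at -0.69 and Plcg1, encoding PLCγ1, at -0.80), beside 4.89% and 6.96% of all genes tested. In Sirt2-/- TILs, 1 of 16 was called, Cd247, lower (-0.56), beside 1.32% of all genes tested. With the low-detection libraries left out, 6 of the 16 were called higher and 3 lower in WT TILs, beside 14.9% and 13.1% of all genes tested. In Sirt2-/- TILs 3 were then called higher and 3 lower, beside 13.8% and 11.6%. Of 11 relatives of the regulators (other diacylglycerol kinases, Cblc, Ptpn1 and Matk), 8 were tested, and Matk, the CSK-related kinase, was called lower in CD8+ TILs of both genotypes (-3.04 in WT, -3.24 in Sirt2-/-). With the low-detection libraries left out, 1 relative was called higher and 3 lower in WT TILs, and 0 higher and 1 lower in Sirt2-/- TILs. Between genotypes, 0 genes of these 3 lists were called in CD4+ or CD8+ TILs by edgeR. Before adjustment, a p under 0.05 was obtained in CD4+ TILs for 2 of the further negative regulators (both lower in Sirt2-/- mice), beside 150 genes higher and 40 lower of the 15070 tested. In CD8+ TILs it was obtained for 3 of them (2 higher, 1 lower), for 1 of the 16 signaling genes and for 1 relative (both higher), beside 334 genes higher and 245 lower of the 15302 tested.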

How the data were processed

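RNA of WT and Sirt2-/- CD4+ and CD8+ TILs was sequenced in 16 libraries. A single table was deposited by the authors, which holds raw counts for each gene and library. Its 55450 identifiers all occur in the GENCODE M21 annotation (GRCm38). The submitters' processing notes name STAR, HTSeq and mm10, and versions and strand settings are not given in the sources used here. Groups were taken from the labels. Nothing says that samples were separate animals beyond 4 per group, so p-values measure the spread between these libraries.

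Tests used edgeR 4.0.16 in R 4.3.3 (TMM, filterByExpr, two-sided quasi-likelihood test with robust dispersions, BH adjustment over all genes tested, threshold 0.05), with each comparison fitted on its own 8 libraries and the difference of genotype effects on all 16. CPM used TMM factors over the 16 libraries, and RPKM the union of exons. For shares, all 70 assignments of libraries to groups were permuted exactly (scipy 1.17.1). Alternatives were DESeq2 1.42.0, limma-voom 3.58.1 with quality weights, RLE size factors, other filters, 1 model for all libraries, a replicate block, and fits without each library or without the 3 with fewer than 15000 detected genes. The fits were run on simulated count tables with known large changes in well-counted genes, where recovery was required only at a fixed dispersion. This check does not measure power at the spread of these libraries. At 28000949 counts or more per library, intervals reflect the spread between libraries and not counting error, and a gene at 0 is compatible with up to 3 counts. This floor covers counting error only, since reads lacked molecular identifiers.

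The named genes were all 10 regulators, Sirt2, Cd4, Cd8a and Cd8b1 as checks, and, from the 3 pathway lists, genes called in a comparison, at most the 6 largest per list and comparison. Antisense neighbours of the regulators and genes of marker lists were named beside the results they touch. The members and the lists were chosen with earlier results of these data known. NK, stromal and erythroid marker lists were also summed, to at most 13.7, 58.0 and 9.31 CPM.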

Additional observations from a re-analysis of the deposited data

Results flagged for a closer look

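Of 52 groups of 4 values (the 10 regulators and the 3 shares in each group), 5 held a library far from the other 3 by Dixon's ratio of gap to range at its 95% limit, where chance gives about 2.6. In Sirt2-/- CD4+ TILs, replicate 4 was low for Csk (39.6 CPM, others 136 to 144) and high for Ptpn6 (215 CPM, others 67.9 to 80.3) and Ubash3a (379 CPM, others 125 to 142). This library had the fewest detected genes of the 16 (8169), and its part in these values was not tested. In WT CD4+ TILs, replicate 1 was high for Pag1 (144 CPM, others 97.0 to 101). In WT CD8+ TILs, replicate 2 was high for Cblb (293 CPM, others 272 to 275).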

How the results depend on the processing

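The 4 called differences (Ptpn6, Dgka and Dgkz between WT cell types, Dgka between Sirt2-/- cell types) kept their direction in every alternative run. They kept their call in 31 of 32 alternatives that kept all replicates or left out the low-detection libraries, and in 26 of 32 fits without 1 library. All losses were of Dgka in Sirt2-/- TILs, and 1 came with the replicate block (adjusted p = 0.0685).

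Over the list, between Sirt2-/- cell types, 3 regulators were called by limma-voom, beside 4481 of 15787 genes tested. Without the low-detection libraries 3 were called, beside 4250 of 16703 genes, and with the block 0, beside 108 of 15787. Fits without 1 library called 0 to 3, beside 111 to 4250 genes. They called 0 without any of Sirt2-/- CD4+ replicates 1 to 3 and Sirt2-/- CD8+ replicates 2 to 4, and 3 without Sirt2-/- CD4+ replicate 4. In all other comparisons the count of called regulators stayed at its value in every alternative, except 4 by limma-voom between WT cell types (Cbl in addition, -0.41), beside 5504 of 14892 genes tested.

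Counts over all genes moved more. Between genotypes in CD4+ TILs they were 0 at first, 7 by DESeq2, 4 by limma-voom and 6 without low-detection libraries. In CD8+ TILs they were 1 at first, 3 at a threshold of 0.1, 28 by DESeq2, 5 by limma-voom, 5 without a filter, 4 with the block, 7 without the low-detection library and 0 to 7 without 1 library. Between WT cell types they were 2651 by DESeq2, 5504 by limma-voom, 811 in 1 model, 4394 without low-detection libraries and 1022 to 2767 without 1 library (highest without WT CD4+ replicate 1). Between Sirt2-/- cell types they were 616 at 0.1, 1339 by DESeq2, 4481 by limma-voom, 907 with at least 10 counts in every library, 781 in 1 model, 108 with the block, 4250 without the low-detection library and 111 to 4250 without 1 library (highest without Sirt2-/- CD4+ replicate 4). For the difference of genotype effects, DESeq2 called 2.

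Only differences that passed no test changed sign. In CD4+ TILs between genotypes, limma-voom gave Pag1 0.21, Ptpn6 -0.016, Ubash3a -0.099 and Dgka 0.037, fits without low-detection libraries gave 0.26, -0.029, -0.16 and 0.053, and fits without 1 library gave -0.14 to 0.13, -0.16 to 0.57, -0.22 to 0.47 and -0.13 to 0.12 in this order. With the block Dgka was 0.0016. In CD8+ TILs, limma-voom gave Dgka 0.065 and Dgkz -0.0067, and the fit without the low-detection library gave Dgka 0.078. Without 1 library Csk was -0.11 to 0.051, Ptpn22 -0.0083 to 0.078 and Dgka -0.26 to 0.078. Between WT cell types, limma-voom gave Ptpn22 -0.022, Cblb -0.087 and Ubash3a 0.059, fits without low-detection libraries gave Pag1 0.032 and Ubash3a 0.077, and Ubash3a was 0.023 without a filter and 0.019 in 1 model. Without 1 library Csk was -6.2e-06 to 0.17, Cblb -0.0013 to 0.065 and Ubash3a -0.11 to 0.087. Between Sirt2-/- cell types, Ubash3a was 0.14 by limma-voom and 0.15 without the low-detection library, and Pag1 was 0.010 with the block and 0.0062 with at least 10 counts. Without 1 library Pag1 was -0.20 to 0.080, Ptpn22 -0.12 to 0.096 and Ubash3a -0.56 to 0.15. For the difference of genotype effects, limma-voom gave Csk -0.081, Pag1 -0.15, Cbl -0.010, Ubash3a 0.018 and Dgka 0.018, fits without low-detection libraries gave -0.044, -0.20, -0.040, 0.10 and 0.026, and without 1 library Cbl was -0.15 to 0.12, Ubash3a -0.56 to 0.15 and Dgka -0.25 to 0.089. The cause of these changes was not tested.

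The labels do not say whether libraries of one replicate number share an animal, and they were not treated as paired, since in no comparison did every pair of deviations correlate above 0.1 (-0.08 to 0.09 and -0.08 to 0.03 between genotypes in CD4+ and CD8+ TILs, 0.098 to 0.14 and -0.02 to 0.15 between cell types in WT and Sirt2-/- mice). In WT, 1 of 4 pairs missed that limit and all 8 libraries correlated best with their own number, as against 2, 1 and 3 of 8 elsewhere, a hint from the data and not from the design. Beyond the counts above, the block changed no call of a regulator.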
